A study of Mus musculus with 13 samples.

Results

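The mitosis genes described here were 54 genes whose products act in G2 and mitosis (cyclins, mitotic kinases, spindle checkpoint, kinesin, kinetochore, cytokinesis and condensin proteins, with the transcription factors Foxm1 and Mybl2). They were listed by symbol for their role in cell division, under a rule that uses no measured value, though with earlier results of these data known. Each symbol matched 1 Ensembl identifier among the 55642 genes of the count table. All 54 passed the filter on low counts, which left 16848 genes for testing. The lowest count of any member in any library was 222 (Mybl2).

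The cells were C2C12, a line of mouse myoblasts that divide in rich medium and fuse into myotubes after serum is changed. Proliferating cells were reverse transfected with non-targeting siRNA (control KD) or with siRNA to YBX3, an RNA- and DNA-binding protein of the Y-box family (YBX3 KD). After 24 h the medium was either kept, with fetal bovine serum (0 day), or replaced by medium with 10% horse serum (1 day), and all cells were harvested 48 h after transfection. The libraries were control KD at 0 day (replicates A to D, n = 4), control KD at 1 day (C and D, n = 2), YBX3 KD at 0 day (A to D, n = 4) and YBX3 KD at 1 day (B to D, n = 3). No genetic change was made in these cells, every group is of 1 line, and the labels call the samples biological replicates without saying what made them separate, so p-values measure the spread between these libraries.

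Genes of mitosis are transcribed mainly in G2, when a DREAM complex that holds them off in resting and G1 cells has given way to B-Myb (Mybl2) and Foxm1 on the same MuvB core. The MuvB core binds a short element near the start site, the cell cycle genes homology region (CHR), and the factor NF-Y binds CCAAT boxes nearby. Because transcripts of these genes appear and are destroyed with each division, their summed level in a culture follows how many of its cells are in G2 or mitosis, and myoblasts lower them as they leave the cycle to differentiate. In RNA from whole cultures, fewer cells in G2 and mitosis and less of each RNA per cell cannot be told apart.

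The promoters of the members carried these elements often. In a window from 250 bases before to 50 bases from the start of each canonical transcript (GRCm39, GENCODE vM39), the CHR letters TTTGAA or TTCGAA stood on either strand in 30 of 54 members (55.6%), against 15.7% of 13111 tested protein-coding genes and 18.7% of all 21540 protein-coding promoters. Near the start, from 60 bases before to 40 after it, the shares were 38.9% (21 of 54) and 3.49% of the tested genes. A CCAAT box was found in 36 of 54 members (66.7%, against 40.6% of the tested genes), and both elements in 24 (44.4% against 6.98%). The E2F letters TTTNNCGC were in 5 members (9.26%, against 8.22% of the tested genes). The list of 53 S phase and DNA replication genes differed in the CHR letters, found in 5 (9.43%), and the E2F letters, found in 18 (34%). A CCAAT box was as frequent there as a trait shared with the members (58.5%). The list of 67 other G2 and mitosis genes resembled the members, with the CHR letters in 41.8% (25.4% near the start). It had a CCAAT box in 59.7%, both elements in 29.9% and the E2F letters in 17.9%. These counts describe letters, not bound sites, and TTCGAA reads the same on both strands and was counted once.

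The promoters below are shown because they belong to members whose levels are followed through the libraries, and because they show how the elements are arranged. They are in GRCm39 coordinates, on the strand of the gene, and capitals mark the CHR letters and CCAAT boxes on either strand. On the other strand the CHR reads TTCAAA as well, and the CCAAT box reads ATTGG.
Top2a, chr11:98914992-98915291, minus strand: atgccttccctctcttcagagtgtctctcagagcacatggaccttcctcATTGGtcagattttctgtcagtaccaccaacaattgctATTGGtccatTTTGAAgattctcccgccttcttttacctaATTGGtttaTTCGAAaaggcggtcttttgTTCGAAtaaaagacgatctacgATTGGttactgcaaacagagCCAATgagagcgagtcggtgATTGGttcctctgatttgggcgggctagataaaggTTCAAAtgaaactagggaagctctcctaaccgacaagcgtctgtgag
Cdk1, chr10:69188719-69189018, minus strand: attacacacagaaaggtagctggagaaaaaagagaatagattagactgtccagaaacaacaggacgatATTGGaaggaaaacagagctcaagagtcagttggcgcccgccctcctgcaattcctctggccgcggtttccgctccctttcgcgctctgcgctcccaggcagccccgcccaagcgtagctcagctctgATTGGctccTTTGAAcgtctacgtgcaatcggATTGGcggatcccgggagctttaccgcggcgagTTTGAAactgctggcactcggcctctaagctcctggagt
Plk1, chr7:121758396-121758695, plus strand: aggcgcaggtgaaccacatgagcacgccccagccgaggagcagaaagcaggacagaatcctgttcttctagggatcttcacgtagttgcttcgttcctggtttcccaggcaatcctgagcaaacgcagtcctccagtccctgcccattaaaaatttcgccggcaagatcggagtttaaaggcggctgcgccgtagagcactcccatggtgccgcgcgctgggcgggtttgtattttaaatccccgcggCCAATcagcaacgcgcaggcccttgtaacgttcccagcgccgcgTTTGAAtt
Aurkb, chr11:68936217-68936516, plus strand: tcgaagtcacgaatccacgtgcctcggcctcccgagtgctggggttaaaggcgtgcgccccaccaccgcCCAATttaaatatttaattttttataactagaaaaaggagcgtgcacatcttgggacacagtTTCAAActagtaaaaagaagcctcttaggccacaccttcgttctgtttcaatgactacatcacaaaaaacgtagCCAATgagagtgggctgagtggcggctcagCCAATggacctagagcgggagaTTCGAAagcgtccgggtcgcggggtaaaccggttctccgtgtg
Ube2c, chr2:164611568-164611867, plus strand: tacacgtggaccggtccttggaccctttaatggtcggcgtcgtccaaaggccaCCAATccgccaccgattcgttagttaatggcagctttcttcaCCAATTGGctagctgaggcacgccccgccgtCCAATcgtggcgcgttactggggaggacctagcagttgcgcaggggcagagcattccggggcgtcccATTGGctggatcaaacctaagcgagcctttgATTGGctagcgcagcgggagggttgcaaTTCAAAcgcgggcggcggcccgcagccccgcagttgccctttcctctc
Racgap1, chr15:99549488-99549787, minus strand: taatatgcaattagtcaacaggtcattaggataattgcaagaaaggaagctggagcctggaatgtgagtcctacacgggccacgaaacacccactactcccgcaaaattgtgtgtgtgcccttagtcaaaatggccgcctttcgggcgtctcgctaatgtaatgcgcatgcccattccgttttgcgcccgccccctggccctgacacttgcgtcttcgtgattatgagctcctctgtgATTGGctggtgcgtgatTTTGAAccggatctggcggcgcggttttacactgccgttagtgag
Mybl2, chr2:162896185-162896484, plus strand: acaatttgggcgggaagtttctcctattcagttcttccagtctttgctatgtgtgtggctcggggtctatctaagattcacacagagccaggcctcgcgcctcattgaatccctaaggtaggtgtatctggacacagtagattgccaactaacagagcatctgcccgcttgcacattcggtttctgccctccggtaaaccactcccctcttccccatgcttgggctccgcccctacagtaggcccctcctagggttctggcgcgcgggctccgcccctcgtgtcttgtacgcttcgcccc
Top2a (topoisomerase II alpha) had 4 CHR matches and 6 CCAAT boxes, and Ube2c (the ubiquitin-conjugating enzyme of the anaphase-promoting complex) had 1 CHR match and 6 CCAAT boxes. In Cdk1, Aurkb and Racgap1 a CHR match began 11, 7 and 5 bases after the start, and in Plk1 42 bases after it. Mybl2 had none of the searched letters in this window and is shown for contrast, since its level was the lowest of the members against the other letters in replicate D of YBX3 KD at 1 day. Across the members, those with a CHR match and those without differed little in their YBX3 KD effect among replicates A to C, described below (medians -0.34 and -0.35 on the log2 scale, n = 30 and 24).

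Library totals were 33451547 to 71811371 counts, the scaling factors (trimmed mean of M values, TMM) were 0.969 to 1.02, and the sequencing gave 21047 to 22902 genes with a count. The libraries expressed the myoblast genes Vim, Itga7, Cdh15, Des and Myf5 at 680 counts or more in every library, while Myod1, the myogenic factor MyoD, had 23 to 188 counts. Pax7, a marker of quiescent muscle stem cells, had at most 9 counts, and of 7 markers of other cell types, Epcam, Alb and Sox10 had none, Ptprc and Pecam1 at most 5, Cd68 58 to 153 and Cdh5 34 to 78. Ybx3 itself was lowered in every pair of libraries of the same letter, to between 9.75% and 20.6% of control KD. Its log2 fold change over both days was -2.81 ± 0.169 (SE, adjusted p = 5.26e-06, edgeR's quasi-likelihood test).

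The level of the mitosis genes, as counts per 1000000 counts of the library (CPM) after TMM scaling, differed most between letter D and the other letters. The summed CPM of the 54 genes was 8540, 8031, 8329 and 3895 in control KD at 0 day (A to D) and 8707 and 6686 in control KD at 1 day (C and D). In YBX3 KD it was 6317, 6579, 6871 and 4150.1 at 0 day (A to D) and 6668, 6562 and 1628 at 1 day (B to D). The 5 YBX3 KD libraries of letters A to C stood together below the 4 control KD libraries of those letters, and in each group the library of letter D was the lowest. As a share of all counts, the members made up 0.861% in the highest library (control KD 1 day C) and 0.162% in the lowest (YBX3 KD 1 day D), both as deposited.

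**Figure D1:**
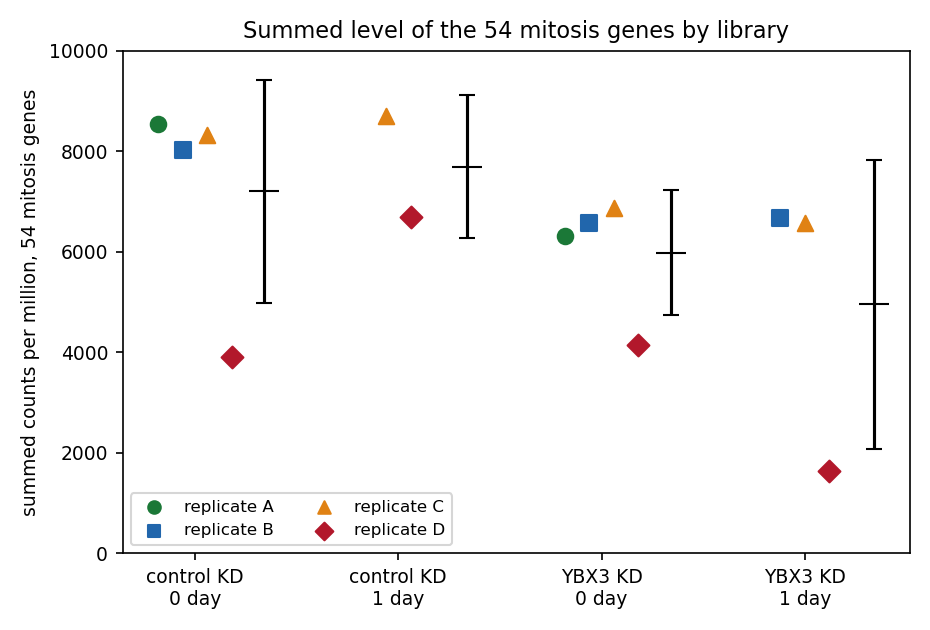
Summed CPM of the 54 mitosis genes (y axis) in each of the 13 libraries, by group (x axis), with a point for each library coloured by replicate letter and a bar for the group mean with SD. The library of letter D is the lowest of its group in all 4 groups, from 6686 in control KD at 1 day down to 1628 in YBX3 KD at 1 day, and without it the YBX3 KD libraries lie between 6317 and 6871 and the control KD libraries between 8031 and 8707.

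Letter D was 46.4% of the mean of the other letters for the median member in control KD at 0 day, 62.6% in YBX3 KD at 0 day, 78.2% of the lone other library in control KD at 1 day and 23.3% in YBX3 KD at 1 day. In YBX3 KD at 1 day the highest of the 54 (Ccnb2, cyclin B2) was at 41.1%, and 7.81% of all genes in that library were at or below this value. The share of all genes at or below the highest member was larger in the other groups. It was 22.2% in control KD at 0 day, 26.2% in YBX3 KD at 0 day and 43.3% in control KD at 1 day. The median of all genes was 99.2% to 101% of the other letters in the 4 groups. Total counts of letter D (33451547 to 41868570) overlapped those of the others. The results below are therefore given with all 13 libraries and with the 9 libraries of letters A to C.

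**Figure D2:**
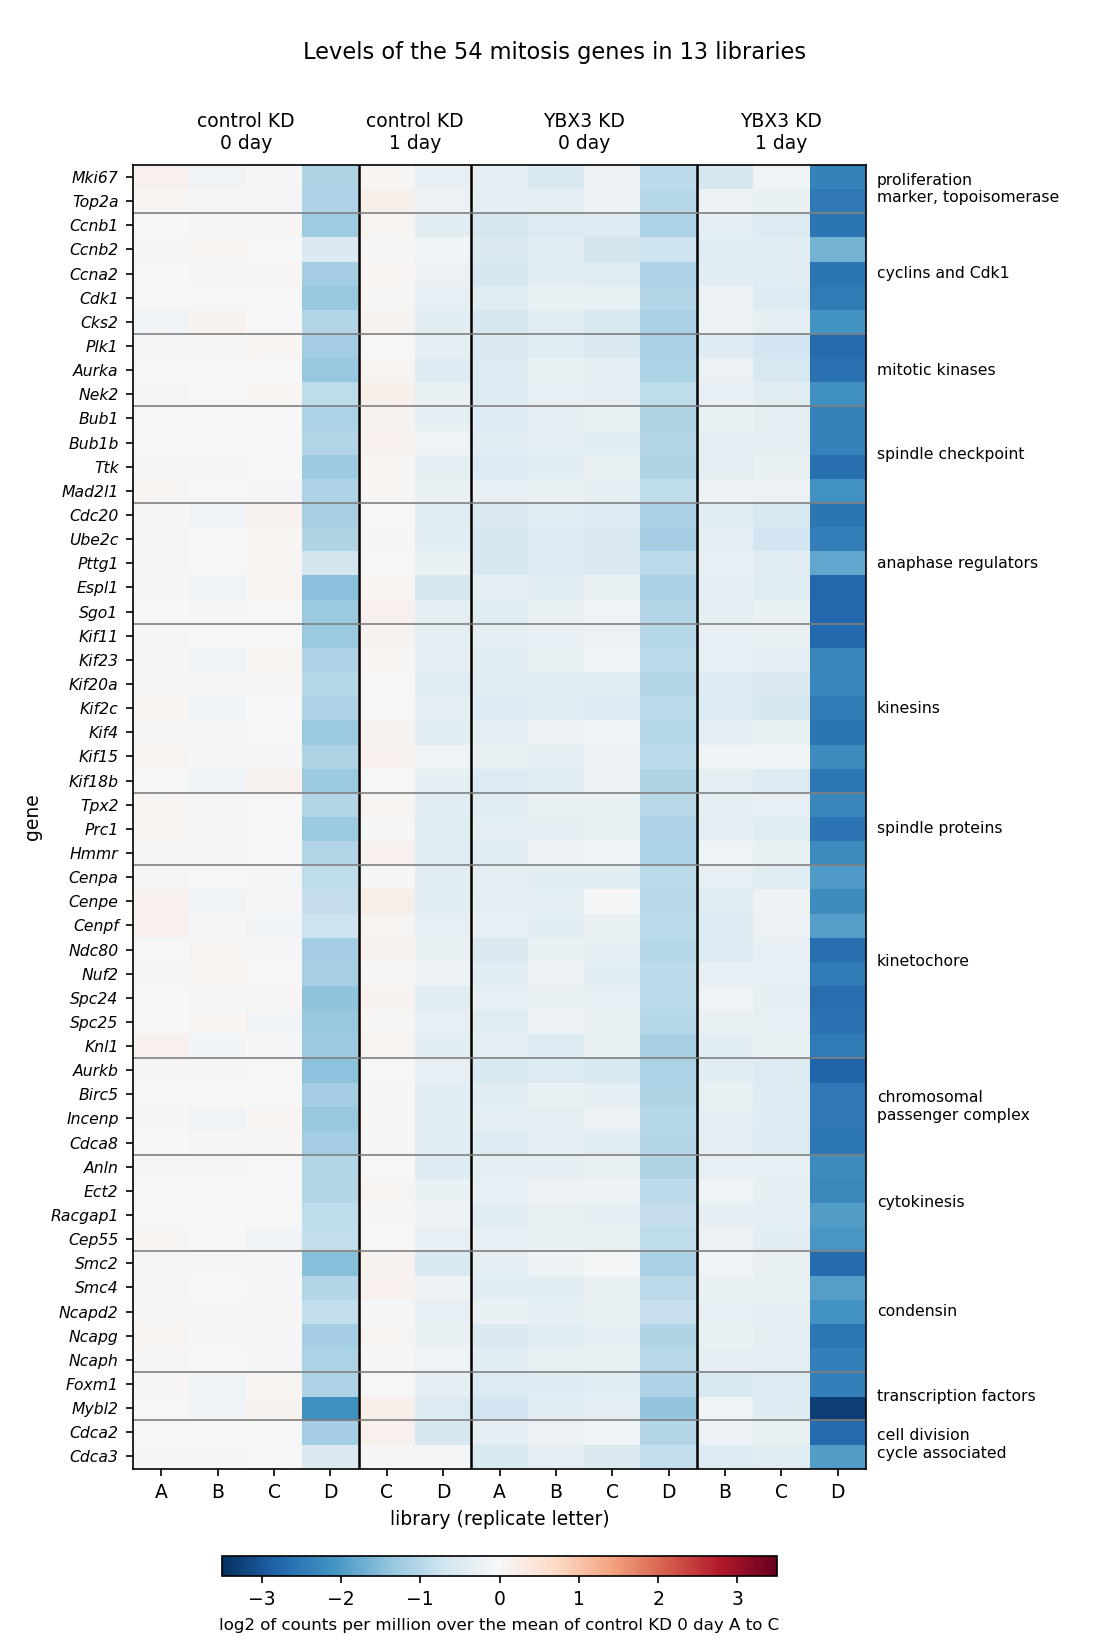
Level of each of the 54 mitosis genes (rows, grouped by role) in each of the 13 libraries (columns, by group and replicate letter), as log2 of CPM over the mean of control KD 0 day replicates A to C. The column of letter D is the bluest of its group in all 4 groups, with the 54 members at 12.6% to 41.1% of the other letters in YBX3 KD at 1 day.

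With all 13 libraries, the fitted log2 fold change of YBX3 KD against control KD over both days was below 0 in each of the 54 members, with a median of -0.40 and a range of -0.58 (Cdca3) to -0.25 (Smc2). The spread between libraries was larger than these differences. By edgeR's quasi-likelihood test 0 of 54 members passed an adjusted p of 0.05 (adjusted p 0.165 to 0.790, median SE 0.305), where 2.34% of all 16848 genes did. At an unadjusted p under 0.05 there were 3, all lower, and DESeq2 gave 0 adjusted and 3 unadjusted. At 0 day 0 of 54 passed, against 0.427% of all genes (median -0.26, 0 at an unadjusted p under 0.05 by edgeR or DESeq2). At 1 day 0 of 54 passed, against 0.0712% of all genes (median -0.64, 1 unadjusted by edgeR, and 0 adjusted and 2 unadjusted by DESeq2). The median over all genes tested was 0.00 for both days together and 0.02 at 1 day. Single libraries moved the medians of the members, those of letter D most. Over both days the median was -0.24 without YBX3 KD 1 day D and -0.54 without control KD 0 day D. At 0 day it was -0.12 without YBX3 KD 0 day D, -0.47 without control KD 0 day D and -0.17 without control KD 0 day A, and at 1 day -0.22 without YBX3 KD 1 day D.

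Libraries with the same letter deviated together, and a fit with the letter as a block gave other counts. With that block 4 of 54 members were lower over both days at an adjusted p under 0.05, against 4.38% of all genes, a share of the members near the background. They were Ccnb2, Pttg1, Cdca3 and Cks2 (adjusted p 0.0349, 0.0352, 0.0447 and 0.0456). With DESeq2 and the same block, 18 of 54 were lower over both days (9.08% of all genes) and 53 of 54 at 1 day (9% of all genes), while edgeR called 0 at 1 day.

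Among the 9 libraries of letters A to C (control KD n = 4, YBX3 KD n = 5), 53 of 54 members were lower in YBX3 KD over both days at an adjusted p under 0.05, against 6.68% of the 17271 genes tested there that were lower. The median was -0.34 on the log2 scale. It was close to that of all 13 libraries, where the pairs of letter D moved in opposite directions. Their medians were 109% of control KD at 0 day and 23.0% at 1 day. Past the study's stricter limit, a fold over 1.3 and an adjusted p under 0.001, there were 7 (Plk1, Ccnb1, Ccna2, Aurkb, Cdca3, Bub1b and Kif20a), against 0.382% of all genes lower. With the letter as a block as well, 51 were lower (6.73% of all genes). The values of YBX3 KD lay below all those of control KD in 53 of 54 members, against 7.16% of all genes. Cenpe, the kinesin-like motor of the kinetochore, was the exception in both counts (log2 fold change -0.32 ± 0.0937, SE, adjusted p = 0.0538, edgeR). At 0 day, 32 of 54 were lower among these letters (2.82% of all genes). At 1 day, with 1 control KD and 2 YBX3 KD libraries, 0 passed by edgeR, with 53 at an unadjusted p under 0.05 and a median of -0.40, and DESeq2 called 22 lower (0.996% of all genes). These 1 day counts rest on the assumption that the lone control KD library varies like the other groups. Letter D was left out here because its level of these same genes was known to stand apart. That choice rests on the values being tested. Counts and adjusted p-values without letter D therefore describe the remaining letters only and are not an independent test. Letter C stood in control KD at both days, and letters B and C in YBX3 KD at both days, so these libraries are not all independent. Log2 fold changes of single genes in letters A to C below, with SE and adjusted p, are from the fit without the block, unless the block is named.

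**Figure D3:**
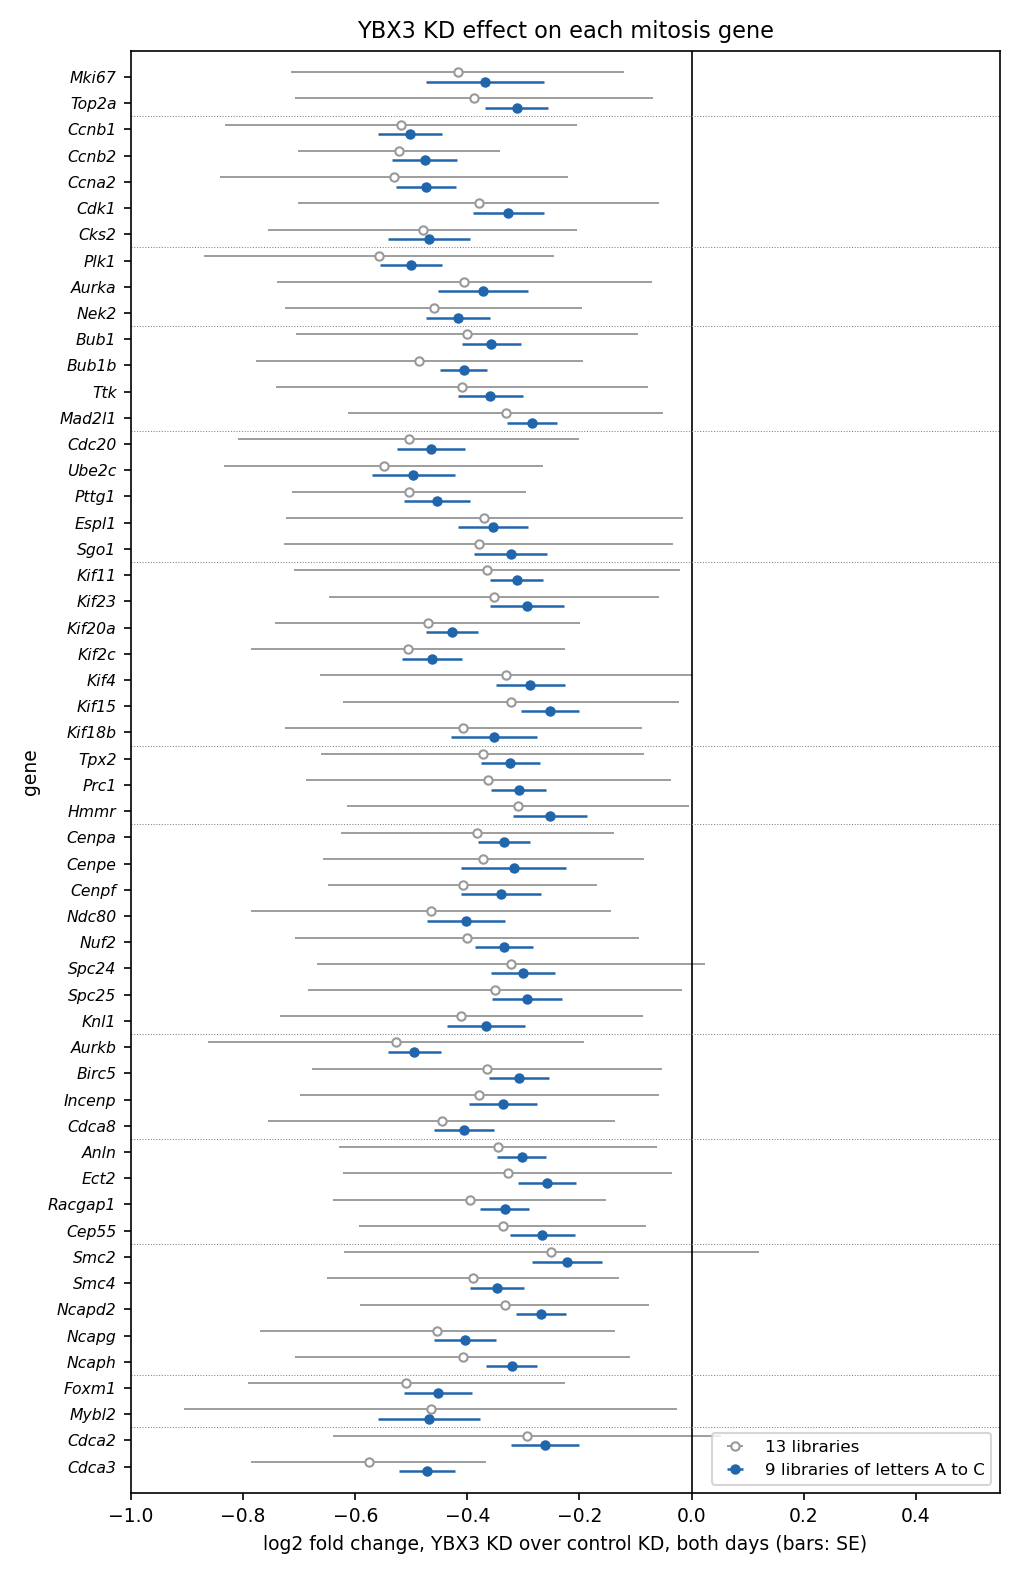
Log2 fold change of YBX3 KD over control KD over both days (x axis, bars SE) for each of the 54 mitosis genes (y axis, in the order of their roles), from all 13 libraries (open grey points) and from the 9 libraries of letters A to C (blue points). All points lie below 0, and the blue points, from -0.50 (Ccnb1) to -0.22 (Smc2), have the shorter bars.

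The pairs of libraries that share a letter show the same pattern without a fit. The YBX3 KD library had less of all 54 members in pair A at 0 day (median 74.0% of control KD), of all 54 in pair B at 0 day (82.8%), of 53 in pair C at 0 day (82.5%) and of all 54 in pair C at 1 day (75.6%). In all 4 of these pairs 53 members were lower, Cenpe being at 100.2% of control KD in pair C at 0 day. In pair D at 0 day the order turned, with 40 of 54 members higher in YBX3 KD (median 109%, range 78.4% for Cdca3 to 169.8% for Mybl2). In pair D at 1 day all 54 were lower, at a median of 23.0% (range 14.3% for Mybl2 to 34.2% for Ccnb2). Over all genes tested, the median of each of the 6 pairs was 99.1% to 102%. Of all genes, 7957 of 16680 were lower in pair A, 8681 of 16620 in pair B and 8449 of 16632 in pair C at 0 day. In pair C at 1 day 8284 of 16612 were lower. The share of all genes lower in all 4 pairs was not counted. Letter C gave a pair at both days, and the members move together, so these counts are not independent.

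**Figure D4:**
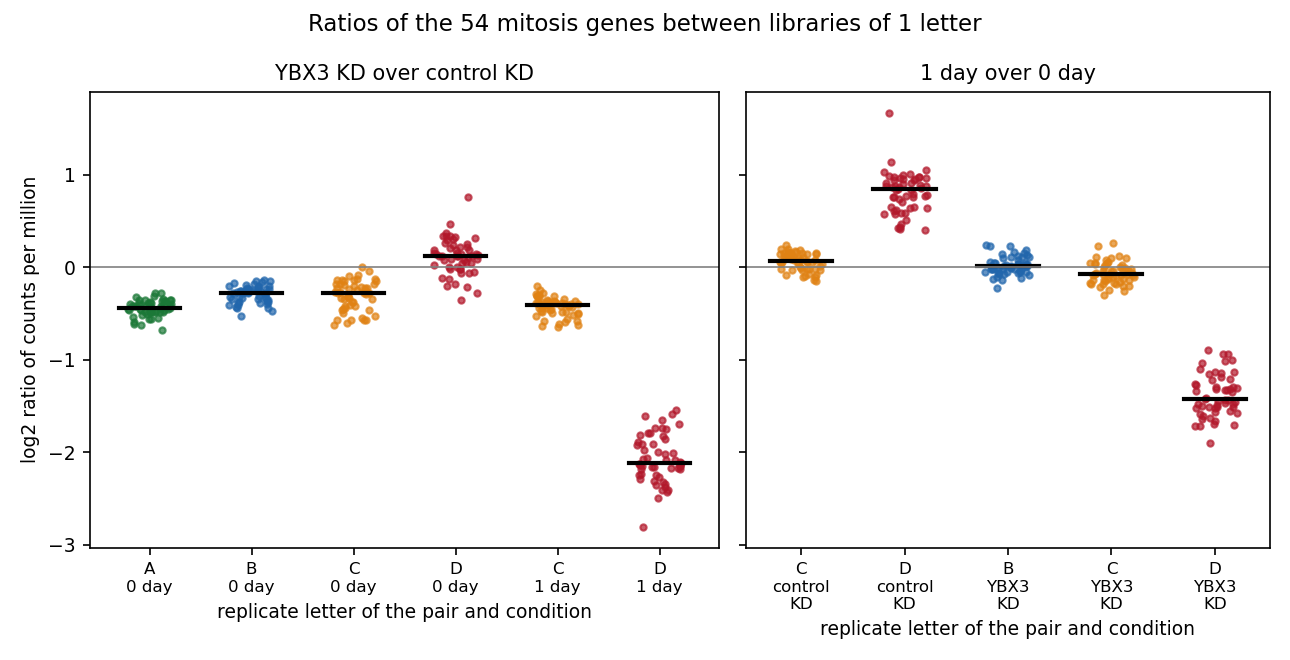
Log2 ratio of CPM (y axis) of each of the 54 mitosis genes (points) between 2 libraries of the same replicate letter, with the median as a black line, for YBX3 KD over control KD (left, 6 pairs) and 1 day over 0 day (right, 5 pairs). The pairs of letters A to C lie in a narrow band, and those of letter D lie from a median of -2.12 to 0.85.

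Cyclins and Cdk1, which together form the kinase that starts mitosis, were among the most lowered roles in letters A to C (5 members, median log2 fold change -0.47, all 5 at an adjusted p under 0.05). Ccnb1 (cyclin B1) was at 165, 155, 169 and 69.1 CPM in control KD at 0 day (A to D) and at 108, 118, 120.2 and 75.5 in YBX3 KD at 0 day. At 1 day it was at 176 and 124.5 in control KD (C and D) and 132, 117 and 27.8 in YBX3 KD (B to D). Without letter D the groups did not overlap, with 166 ± 8.81 CPM in control KD (SD, n = 4) and 119 ± 8.42 in YBX3 KD (SD, n = 5). Here n counts libraries, with some letters at both days. The log2 fold change was -0.50 ± 0.0571 (SE, adjusted p = 0.000987, edgeR), and with all 13 libraries -0.52 ± 0.313 (adjusted p = 0.468). Ccna2 (cyclin A2, which acts from S phase into early mitosis) had a log2 fold change of -0.47 ± 0.0537 in letters A to C (adjusted p = 0.000959, edgeR). Cdk1 was at 182 to 189.7 CPM in the 4 control KD libraries of letters A to C and at 133 to 159 in the 5 YBX3 KD libraries, and at 33.3 in letter D of YBX3 KD at 1 day. Cks2, a small binding partner of Cdk1, was at 74.2% of control KD without letter D.

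The mitotic kinases showed the same separation. Plk1, the Polo-like kinase of centrosome maturation and mitotic entry, was at 179, 179, 192 and 78.3 CPM in control KD at 0 day (A to D), 180.0 and 146 in control KD at 1 day (C and D), 128, 135, 129.9 and 83.5 in YBX3 KD at 0 day and 133, 115 and 28.2 in YBX3 KD at 1 day (B to D). Every YBX3 KD library was below every control KD library of letters A to C, whereas the control KD library of letter D at 0 day was below 6 of the 7 YBX3 KD libraries. The log2 fold change in letters A to C was -0.50 ± 0.0553 (SE, adjusted p = 0.000835, edgeR). Aurka, the Aurora kinase of the spindle poles, was lowered less (-0.37 ± 0.0795, adjusted p = 0.015, edgeR), and Nek2, a centrosomal kinase, was at 75.7% of control KD.

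Aurkb is the kinase of the chromosomal passenger complex, which corrects attachments of chromosomes to the spindle and later acts at the midzone. It had the smallest adjusted p of the members in letters A to C (log2 fold change -0.49 ± 0.0476, SE, adjusted p = 0.00045, edgeR). Its levels were 98.2, 93.1, 97.5 and 35.6 CPM in control KD at 0 day (A to D), 96.1 and 78.3 in control KD at 1 day (C and D), 66.8, 68.5, 65.9 and 45.0 in YBX3 KD at 0 day and 74.3, 68.6 and 13.9 in YBX3 KD at 1 day (B to D). The remaining members of the complex, Birc5 (survivin), Incenp and Cdca8 (borealin), were all lower, and the role's median was -0.37 (range -0.49 to -0.31).

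Among the spindle checkpoint genes, which delay anaphase until all kinetochores are attached, the 4 members were lower without letter D (median -0.36). Bub1b (BubR1) was at 148 CPM in each of control KD 0 day A, B and C and at 113 to 118 in the 5 YBX3 KD libraries of letters A to C, a narrow range against the difference (-0.41 ± 0.0419, SE, adjusted p = 0.000623, edgeR). Mad2l1 was the least lowered of them (-0.28). The anaphase regulators, which carry out the step that the checkpoint holds back, had a median of -0.45 (5 of 5 lower). Ube2c was at 120.5, 127, 135 and 61.7 CPM in control KD at 0 day (A to D) and 122 and 96.4 in control KD at 1 day (C and D). In YBX3 KD it was at 85.2, 91.7, 89.0 and 54.5 CPM at 0 day and 101, 79.4 and 23.9 at 1 day (B to D), so that in letter D at 0 day, unlike most members, it was the lower of the pair. Cdc20, the activator of the anaphase-promoting complex, was at 72.5% of control KD and Pttg1 (securin) at 73.9% without letter D.

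The kinesins, motors that build the spindle and move chromosomes, had a median of -0.31 in letters A to C, with all 7 lower at an adjusted p under 0.05. Kif2c (a microtubule depolymerase at centromeres) and Kif20a (a motor of the midzone) were lowered most, to 72.2% and 74.2% of control KD, and Kif15 least (85.5%). Kif11 (Eg5, which pushes the spindle poles apart) had a log2 fold change of -0.31 ± 0.047 (SE, adjusted p = 0.00329, edgeR). The spindle proteins Tpx2, Prc1 and Hmmr were at 80.2%, 80.4% and 84.5%. Of the 8 kinetochore genes 7 were lower, Ndc80 most (-0.40 ± 0.0695, adjusted p = 0.00609, edgeR), and Cenpa, the histone H3 variant of centromeres, was at 79.2% of control KD. Cenpe, the member that did not pass, was at 210.5, 176 and 186 CPM in control KD 0 day A to C, 219 in control KD 1 day C, 150.1, 149, 187 in YBX3 KD 0 day A to C, and 143 and 169.9 in YBX3 KD 1 day B and C. Its replicates overlapped through the library of YBX3 KD 0 day C.

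The cytokinesis genes had the smallest median change of the roles in letters A to C (-0.28), and the condensin genes, whose products compact chromosomes, had a median of -0.32, with all members of both at an adjusted p under 0.05. Racgap1, a GTPase-activating subunit of centralspindlin, was at 400.4 to 409.9 CPM in the 4 control KD libraries and at 309 to 335 in the 5 YBX3 KD libraries (-0.33 ± 0.0438, SE, adjusted p = 0.00182, edgeR). Anln (anillin, a scaffold of the contractile ring) was at 81.2% of control KD. Smc2, a core subunit of condensin, was the least lowered member (-0.22 ± 0.0626, adjusted p = 0.0453, edgeR) and did not pass with the letter as a block (adjusted p = 0.0719). Smc2 also had the lowest level of any member in letter D of YBX3 KD at 0 day against its group, at 52.3%. Ncapg, another condensin subunit, was lowered more (-0.40 ± 0.0559, adjusted p = 0.00235, edgeR).

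Top2a, which untangles sister chromatids, and Mki67, which coats mitotic chromosomes and is the usual marker of dividing cells, had the highest CPM of the members in control KD 0 day A to C. Top2a was at 652, 605, 609 and 294 CPM in control KD at 0 day (A to D), 698 and 545 in control KD at 1 day (C and D), 489, 500.4, 553 and 312 in YBX3 KD at 0 day and 539.5, 529 and 109 in YBX3 KD at 1 day (B to D). Its log2 fold change in letters A to C was -0.31 ± 0.056 (SE, adjusted p = 0.00733, edgeR). Mki67 varied more between libraries (control KD 0 day A to C 582, 473 and 506 CPM, YBX3 KD 0 day A to C 415, 357 and 456), and passed narrowly (-0.37 ± 0.106, adjusted p = 0.0482, edgeR). Per kilobase of canonical transcript, the members with the highest level in control KD 0 day A to C were Birc5 (149 CPM per kb), Racgap1 (137) and Ube2c (132), and the lowest was Knl1 (10.7), a large kinetochore scaffold.

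The transcription factors of the G2 genes were lower as well. Foxm1 was at 183, 158 and 188 CPM in control KD 0 day A to C and at 125, 129 and 136 in YBX3 KD 0 day A to C (-0.45 ± 0.0606 in letters A to C, SE, adjusted p = 0.002, edgeR). Mybl2 was at 55.5, 50.5, 60.3 and 12.5 CPM in control KD at 0 day (A to D), 62.6 and 39.8 in control KD at 1 day (C and D), 34.6, 42.0, 43.6 and 21.2 in YBX3 KD at 0 day and 49.8, 40.7 and 5.68 in YBX3 KD at 1 day (B to D). Against the other letters it was the lowest of the 54 members in letter D of control KD at 0 day (22.5%) and of YBX3 KD at 1 day (12.6%). At the other end stood Ccnb2, Cdca3 and Pttg1, at 70.2%, 70.1% and 64.0% in control KD at 0 day. In letters A to C these genes were lowered by YBX3 KD to a like degree (Mybl2 73.7%, Ccnb2 72.8%, Cdca3 72.4% and Pttg1 73.9% of control KD).

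The step from 0 day to 1 day changed no member at an adjusted p under 0.05 with all 13 libraries. In control KD 0 of 54 passed (0% of all genes, median 0.10), in YBX3 KD 0 (0%, median -0.28), over both siRNAs 0 (0%, median -0.10), and the difference of the YBX3 KD effect between days gave 0 (0%, median -0.37). In each of these 4 comparisons 0 members had an unadjusted p under 0.05 by edgeR, and DESeq2 gave 0 adjusted and 0 unadjusted. The signs of these medians turned with single libraries. Without control KD 0 day D alone, or without control KD 1 day C alone, the median in control KD was -0.12, and without YBX3 KD 1 day D alone it was 0.13 in YBX3 KD, 0.13 over both siRNAs and 0.05 for the difference. Without the 4 libraries of letter D the medians were 0.06 in control KD, 0.00 in YBX3 KD, 0.03 over both siRNAs and -0.04 for the difference. Within letters, 1 day was at a median of 105% of 0 day in control KD C, 101% in YBX3 KD B and 95.2% in YBX3 KD C. In letter D it was at 179.7% in control KD, with all 54 members higher, and at 37.2% in YBX3 KD, with all 54 lower. Control KD at 1 day has letters C and D only and YBX3 KD at 1 day has B to D, so the share of letter D differs between the groups compared.

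The members moved together across the libraries. The correlation of each member with the median of the 53 others, over 13 libraries on the log2 scale, was 0.932 (Ccnb2) to 0.998 (Cdca8), with a median of 0.994. This describes libraries that share letters and siRNAs. The SD of log2 CPM over the libraries had a median of 0.69 over all 13 and 0.20 over the 9 of letters A to C.

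Other genes of the cell cycle were read from lists of their own. The 53 S phase and DNA replication genes followed the same order of libraries, at a median of 39.1% of control KD 0 day A to C in control KD 0 day D and 22.1% in YBX3 KD 1 day D. Of these, 38 of 53 were lower in YBX3 KD in letters A to C at an adjusted p under 0.05 (median -0.33) and none higher, Uhrf1, Chaf1b and Mcm7 having the smallest p. In that fit 6.68% of all genes were lower and 5.8% higher, which also holds for the lists that follow. With all 13 libraries 0 passed. Of 67 further G2 and mitosis genes, 51 were lower and 1 was higher without letter D (median -0.26). The higher one, Psrc1, a microtubule-associated protein of the spindle that p53 also induces, was at 164%, 169% and 179% of control KD in pairs A, B and C at 0 day, 152% in pair C at 1 day, and 114.8% and 115% in pair D at 0 day and 1 day, and it also passed with all 13 libraries (0.63 ± 0.12, SE, adjusted p = 0.0179, edgeR). The list of G1 cyclins and CDKs, which also holds Myc (7 genes together), did not share the shift in letters A to C (1 higher, 1 lower, median 0.00). Ccnd1 (cyclin D1) was at a log2 fold change of 0.29 and Cdk4 at -0.20.

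Of the 22 genes listed as cell cycle brakes 20 were tested. Not all of them only restrain the cycle, since the list holds Lin9, Lin37, Lin52 and Lin54 of the MuvB core. In pair D at 1 day 10 of the 20 were higher and 10 lower in YBX3 KD, Lin9 lowest at 26.7% of control KD. With all 13 libraries 1 rose and 1 fell over both days, where 2.34% of all genes passed in either direction. Without letter D 4 rose and 6 fell (median -0.05). Cdkn1a, which encodes the kinase inhibitor p21, rose (log2 fold change 1.01 ± 0.196, SE, adjusted p = 0.0199, edgeR, and 1.26 ± 0.0625 without letter D, adjusted p = 1.92e-05), and Cdkn2d, another inhibitor of G1 kinases, fell (-0.45, adjusted p = 0.0334). Cdkn1a was at 116, 129, 123 and 274 CPM in control KD at 0 day (A to D), 119 and 139 in control KD at 1 day (C and D), 288, 301, 290.0 and 277 in YBX3 KD at 0 day and 311, 261 and 364 in YBX3 KD at 1 day (B to D). The control KD library of letter D at 0 day thus stood with the YBX3 KD libraries. In YBX3 KD letter D had the lowest Cdkn1a of its group at 0 day and the highest at 1 day, and the lowest mitosis genes at both. The part of Cdkn1a in the level of the mitosis genes was not tested. The muscle differentiation list (19 tested) also moved between libraries, from 20.7% in control KD 0 day D to 248% in YBX3 KD 1 day C of its median level in control KD 0 day A to C, and its part was not tested either. Several of its genes had few counts, the lowest being 1 for Ckm and Mybph and 2 for Myog and Myh3. The summed CPM of the list moved less. It was 278 and 639 in those 2 libraries, against 416, 505 and 425 in control KD 0 day A to C. The median of the list did not rise steadily with the day. Within letters its median at 1 day was 90.0% of 0 day in control KD C and 109.6% in control KD D. In YBX3 KD it was 38.3% in B, 318% in C and 88.5% in D. The list in YBX3 KD was at 84.8% (pair B at 0 day) to 341% (pair C at 1 day) of control KD.

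**Figure D5:**
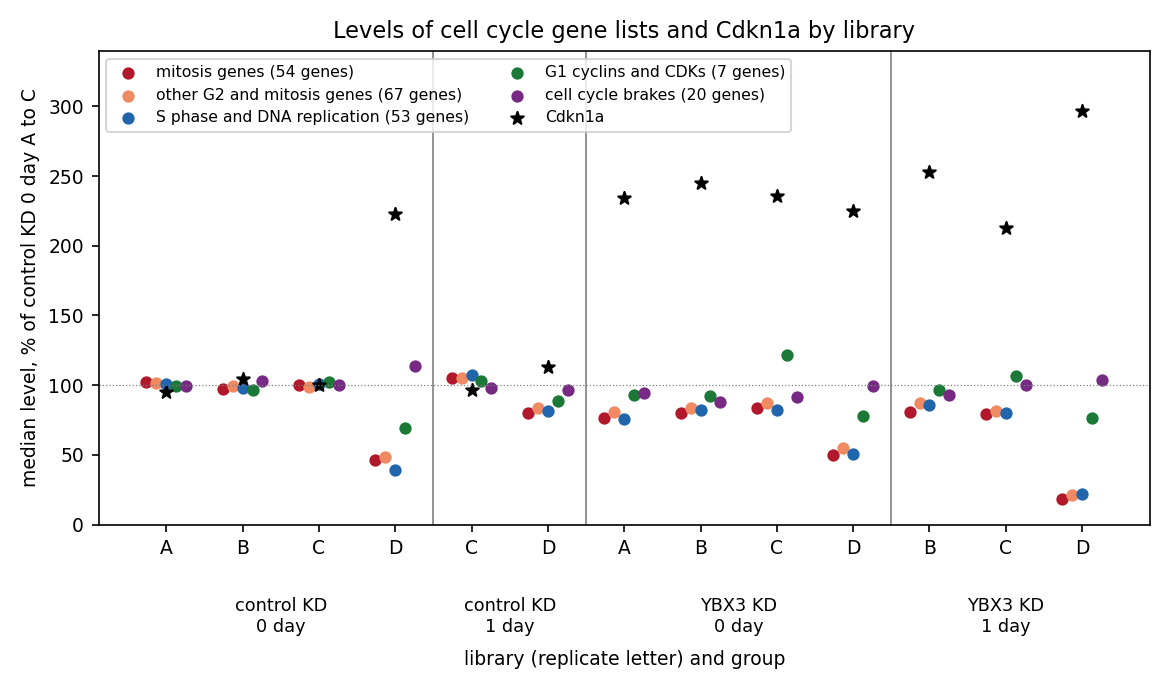
Median level of the mitosis genes, of 4 other lists of cell cycle genes and of the gene Cdkn1a in each of the 13 libraries (x axis, by group and replicate letter), as a percent of control KD 0 day A to C (y axis). The mitosis, S phase and other G2 genes lie together and lowest in letter D, down to 18.3% for the mitosis genes in YBX3 KD at 1 day. The median of the 20 genes listed as cell cycle brakes lies between 88.0% and 114%, and Cdkn1a lies highest in the 7 YBX3 KD libraries and control KD 0 day D.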

How the data were processed

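RNA of C2C12 cells was sequenced in 13 libraries. The authors deposited 1 table of estimated counts for each gene, not normalized and written as whole numbers. Per the paper's methods and the labels, libraries of a stranded mRNA kit were quantified with Salmon (GRCm39, Gencode M30), its version and the step to whole numbers being not given in the sources used here. The members and lists were chosen with earlier results of these data known.

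Symbols and positions were taken from GENCODE vM39 by Ensembl identifier (54969 of 55642 matched). Genes were filtered with filterByExpr over the 4 groups and scaled by TMM in edgeR 4.0.16 (R 4.3.3), and all 16848 were tested by its quasi-likelihood test with Benjamini-Hochberg adjustment. YBX3 KD and day over both days came from an additive fit, and the other contrasts from a fit with 1 coefficient for each group. The SE of a log2 fold change was taken from the test's F statistic. DESeq2 1.42.0, other scalings and filters, a block by replicate letter or title number, and fits without letter D or any 1 library were alternatives, 4 of them added after seeing the data. Letter D was left out with its low level of the members known. Fits were tested on simulated counts drawn without a letter effect, so these cannot show how the fits handle the deviations shared within letters.

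The letter in the description and the number in the title disagree at 1 day. With each group's mean log2 CPM subtracted from every gene, deviations correlated above 0.1 for each of the 16 same-letter pairs from different groups (0.117 to 0.730, median 0.338), in 11 of 46 other pairs (median -0.146) and in 8 of 16 pairs with the same title number (median 0.0931). The letters were taken to pair the samples.

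A member was called at an adjusted p under 0.05. Named were a panel of 22 members chosen for their role, members past the threshold with the smallest p, up to 3 such genes of each other list, and Ybx3; further members named for a role, an extreme value or a small count were chosen after their values were seen. Promoter sequences were read from the GRCm39 genome, and those on chromosome 18 are not reported here.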

Additional observations from a re-analysis of the deposited data

Results flagged for a closer look

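In the 2 groups of 4 libraries, the gap of the highest or lowest library to its nearest neighbour, as a share of the group's range, was compared with Dixon's 95% critical value for 4 libraries for the 22 members of the panel, their summed level and Ybx3. Of 48 sets of values, 22 were past it, where chance gives about 5%, and in all 22 the library of letter D was the lowest. These sets are not independent, since the members move together.

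In control KD at 0 day, 16 sets were past the value. The summed CPM of the 54 genes was 3895 in letter D against 8031 to 8540 in letters A to C. The lone low values of letter D were 294 CPM for Top2a, 69.1 for Ccnb1, 109 for Ccna2, 72.6 for Cdk1, 78.3 for Plk1, 41.6 for Aurka, 35.6 for Aurkb and 52.2 for Bub1. They were 69.9 CPM for Kif11, 113 for Kif20a, 65.6 for Cenpa, 64.4 for Birc5, 95.0 for Prc1, 144 for Anln and 91.7 for Smc2.

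In YBX3 KD at 0 day, 6 sets were past it, with letter D at 83.5 CPM for Plk1, 45.0 for Aurkb, 109.9 for Kif20a, 62.8 for Cenpa, 110.4 for Prc1 and 142 for Anln. The same 6 genes were past it in control KD. The 1 day groups have 2 and 3 libraries and were not compared in this way.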

How the results depend on the processing

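With 13 libraries no member passed in any of the 7 comparisons, and this stayed so for relative log expression factors, no filter on low counts, at least 10 counts in every library, unblocked DESeq2, the block by title number, only the libraries compared and, for the steps between days, only the letters sequenced at both days. The replicate block by letter gave 4 members over both days with edgeR, and with DESeq2 18 over both days and 53 at 1 day; it changed no other count. Only letters C and D, or only letters sequenced at both days, each with that block and added after seeing the data, gave 0. Without the 4 libraries of letter D the counts were 53 over both days and 32 at 0 day. With the replicate block as well they were 51 and 24, and with DESeq2 54 and 48, both of these also added after seeing the data. The stricter limit gave 0 with 13 libraries and, without letter D, 7 over both days (DESeq2 19, and 15 at 0 day). For the 24 and for the DESeq2 counts without letter D, the share of all genes is not given. Those counts show only how the number of members depends on the fit. Leaving out each library in turn gave 0 to 2 members over both days, the 2 without YBX3 KD 1 day replicate D, and 0 in the other 6 comparisons. The 22 panel members kept a negative YBX3 KD effect over both days under every alternative run. Their steps from 0 day to 1 day were not recomputed one by one, since none is reported. At 1 day without letter D, 1 control KD library remains, and it is assumed to vary like the other groups. The counts given for that fit in the Results rest on this assumption and are not repeated here. Each member had at least 222 counts in every library, and the median SE with 13 libraries was 0.305 over both days.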
